A study of Mus musculus with 2 samples.

Results

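CNS-associated macrophages (CAMs) are the macrophages at the borders of the brain, in the meninges, the choroid plexus and the spaces around vessels. In these data they were chosen by measured values, as the cells with at least 500 gene UMIs (unique molecular identifiers, each standing for 1 captured RNA molecule), at least 8 UMIs of *Mrc1*, *Pf4*, *F13a1*, *Cbr2* and *Dab2* in sum, and at most 1 UMI of the lymphocyte genes *Cd3e* and *Cd79a*. Of 19864 deposited cells, 368 met this rule. The control mice 1 to 4 held 42, 52, 102 and 54 of them, and the Arpc4ΔCx3cr1 mice 1 to 4 held 41, 24, 19 and 34. The levels of the 5 rule genes therefore describe the members and support nothing.

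CAMs clear material from the fluid around vessels and in the meninges with scavenger and lectin receptors such as LYVE1, the mannose receptor CD206 (encoded by *Mrc1*) and the haemoglobin receptor CD163. A population with much MHC class II, which presents antigen to T cells, is usually told apart from a population with LYVE1. Like microglia, CAMs depend on CSF1R and express *Cx3cr1*, so a Cre driven by the *Cx3cr1* promoter can reach them. ARPC4 is a subunit of the Arp2/3 complex, which nucleates branched actin filaments.

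CD45+ cells were sorted from the brains of 8 mice, 12 weeks old, and the 3′ ends of their transcripts were sequenced. All 8 mice carried *Arpc4* fl/fl, and 4 of them also carried Tg(Cx3cr1-Cre) (Arpc4ΔCx3cr1), while their 4 Cre-negative littermates were the controls. Each mouse had its own oligonucleotide tag, and all cells went into a single library. The Cre acts in cells with *Cx3cr1* activity from their development on, which is not restricted to CAMs. The controls were all male, and 1 of the 4 Arpc4ΔCx3cr1 mice was female. The paper left this mouse out of its own comparisons, while all 8 mice are used here. The sources used here do not tell which mouse it was. *Xist*, the RNA of the inactive X chromosome, was at 791 CPM (UMIs scaled to 1000000 gene UMIs) in the members of Arpc4ΔCx3cr1 mouse 1 and at 0 to 81.3 CPM in those of the other mice, and each result was recomputed without each mouse.

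A mouse had 1257 to 2831 cells and 5251527 to 12878691 gene UMIs, and its members together held 108672 to 553942. No cell barcode was shared between mice. The median member held 4120.5 gene UMIs in the control and 4343 in the Arpc4ΔCx3cr1 mice. Cells with tags of 2 mice are not in the deposited tables of single mice, but doublets of 1 mouse can remain.

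The name of the population was checked with genes that the rule did not use. *Lyve1* or *Cd163* was detected in 185 of the 368 members (50.3%). Microglia of the same mice, 17334 cells, were taken by a rule of 5 microglia genes and at most 2 UMIs of the 5 CAM rule genes. *Lyve1* was found in 6 of 8576 control and 6 of 8758 Arpc4ΔCx3cr1 microglia, at median depths of 3676 and 4343.5 UMIs. That rule leaves out cells with more CAM RNA. These shares may therefore understate the background of free RNA in the pool and do not support the name. The members were not uniform, however. The 5 rule genes took 0.639% of the UMIs of the median member, with medians of 0.643 to 0.772% in the control mice and of 0.225, 0.354, 0.561 and 1.21% in the Arpc4ΔCx3cr1 mice.

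Members whose rule genes took at least 0.5% of their UMIs are called marker-rich below. There were 210 of them, 157 in control mice (25, 32, 65 and 35 in mice 1 to 4) and 53 in Arpc4ΔCx3cr1 mice (11, 9, 10 and 23). *Lyve1* or *Cd163* was detected in 74.8% of the marker-rich and in 17.7% of the other 158 members. The 8 genes of the monocyte list took 11.8 CPM of the marker-rich and 1372 CPM of the other members. Of the other members, 18 held 5 or more monocyte-list UMIs (13 control, 5 Arpc4ΔCx3cr1), and no marker-rich member did. The data therefore go with the name CAM for the marker-rich members and less well for the rest, in which genes of monocytes, granulocytes, dividing cells and microglia were also found. The dendritic cell list took 104 CPM of the marker-rich and 145 CPM of the other members. Members with 5 or more of its UMIs numbered 4 and 7, of which 10 were of control mice and 1 of an Arpc4ΔCx3cr1 mouse. *Cd209a*, a gene of that list, was detected in 23 of 250 control and 2 of 118 Arpc4ΔCx3cr1 members. The part of dendritic cells in the differences below was not tested. In control mouse 3, 1 member brought most of the 7046 granulocyte-list UMIs of that mouse.

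The 22 members with exactly 8 rule-gene UMIs held a median of 2.5 detected rule genes in control and 2 in Arpc4ΔCx3cr1 mice, and *Lyve1* or *Cd163* was found in 1 of 10 and 1 of 12. The 38 cells just outside, with 7 UMIs, were 11 control and 27 Arpc4ΔCx3cr1 cells. Cells with 3 to 7 UMIs of the rule genes were unequally spread over the mice. There were 19 to 37 of them in each control mouse, but 201, 96, 33 and 55 in the Arpc4ΔCx3cr1 mice 1 to 4. Microglia-rich members, in which a list of 12 microglia genes took more than the median share in the microglia of that mouse divided by 2, made up 14.8% of the control and 36.4% of the Arpc4ΔCx3cr1 members. This bar was set per mouse, and the list genes fell in Arpc4ΔCx3cr1 microglia. The 2 percentages therefore do not compare the amount of microglial RNA. The list took a median of 0.527% of the UMIs of control and 0.427% of those of Arpc4ΔCx3cr1 members.

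**Figure D1:**
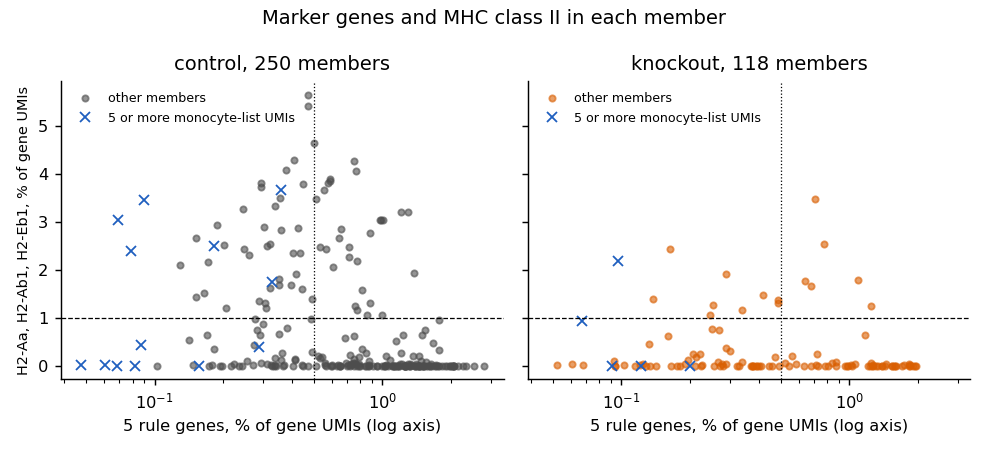
Each point is 1 member, placed by the share of its gene UMIs on the 5 rule genes (x, percent, log axis) and on *H2-Aa*, *H2-Ab1* and *H2-Eb1* (y, percent), for 250 control and 118 Arpc4ΔCx3cr1 (knockout) members. Crosses mark the 13 and 5 members with 5 or more monocyte-list UMIs, which all lie left of the dotted line at 0.5%, and the dashed line is the cut at 1% between MHCII-low and MHCII-high members.

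The first comparison asked whether mice with the deletion held as large a share of CAMs as controls. CAMs made up 3.34, 1.84, 3.77 and 2.04% of the CD45+ cells of the control mice and 1.56, 0.944, 0.703 and 1.34% of those of the Arpc4ΔCx3cr1 mice. Every control mouse lay above every Arpc4ΔCx3cr1 mouse. The means were 2.75% ± 0.954 and 1.14% ± 0.384 (SD, n = 4 each), a difference of -1.61 percentage points (two-sided exact permutation test, p = 0.0286, the smallest that 4 against 4 mice allow). Exact 95% binomial intervals, which cover counting error only, ran from 1.38 to 2.40% in control mouse 2, the lowest control, and from 1.12 to 2.11% in Arpc4ΔCx3cr1 mouse 1, the highest of its group, so that these neighbours could not be told apart at this depth.

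The groups also did not overlap among marker-rich members. Their share of the cells was 1.99, 1.13, 2.40 and 1.32% in control and 0.418, 0.354, 0.370 and 0.905% in Arpc4ΔCx3cr1 mice (1.71% ± 0.590 and 0.512% ± 0.264, SD, n = 4 each, exact permutation p = 0.0286). With every cell thinned to 2000 UMIs and a minimum of 4 rule-gene UMIs the shares were 2.94 and 1.29%, leaving out 1202 control and 813 Arpc4ΔCx3cr1 cells that were shallower. The result ended with a minimum of 5 rule-gene UMIs, where the means were 3.32 and 2.32% and the exact permutation p was 0.2. Over all members it also did not pass without any 1 of the Arpc4ΔCx3cr1 mice 1 to 4, at exact permutation p of 0.0571, 0.0857, 0.0857 and 0.0571. The differences were then -1.75, -1.55, -1.47 and -1.68 percentage points, and every control mouse still lay above every Arpc4ΔCx3cr1 mouse. With groups of unequal size, regroupings other than the observed one gave a difference at least as large. These are shares of sorted cells, and the number of CAMs per brain was not measured. The paper reports a sharply higher number of microglia in the cortex of Arpc4ΔCx3cr1 mice of this age. Microglia by the rule above were 17334 of the 19864 cells, and more microglia alone would lower a share of CAMs. Shares cannot tell this apart from a smaller number of CAMs, and neither was tested.

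**Figure D2:**
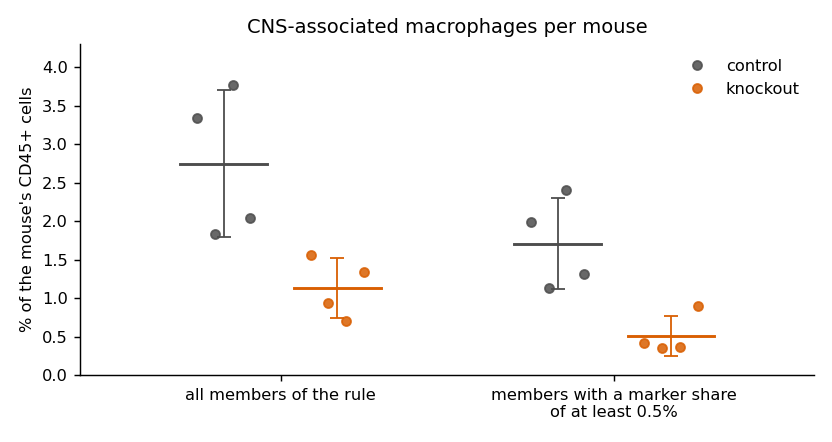
Share of CAMs among the CD45+ cells of each mouse (y, percent), for all members of the rule and for marker-rich members. Points are mice, bars the mean and SD of 4 mice, and in both sets all 4 control mice lie above all 4 Arpc4ΔCx3cr1 (knockout) mice.

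Members were further divided by MHC class II into MHCII-high (over 1% of gene UMIs on *H2-Aa*, *H2-Ab1* and *H2-Eb1*, 88 members) and MHCII-low (280 members). The cut lies in a range and does not separate cell types by itself, since 15 members lay between 0.75 and 1.25%, although the median was 2.43% in the high and 0% in the low members. MHCII-high members made up 23.8, 21.2, 33.3 and 31.5% of the CAMs of the control mice and 9.76, 16.7, 26.3 and 8.82% in the Arpc4ΔCx3cr1 mice. Only Arpc4ΔCx3cr1 mouse 3, with 5 of 19 members, reached the control range. The means were 27.4% ± 5.88 and 15.4% ± 8.08 (SD, n = 4 each), a difference of -12.1 percentage points that did not pass (exact permutation p = 0.0857). With single mice left out the difference ranged from -15.7 to -9.87 points. The exact permutation p was 0.0286 without Arpc4ΔCx3cr1 mouse 3, which is the mouse nearest to the controls, and 0.0857 to 0.143 without any of the other 7. Of the marker-rich members 15.5% and 13.1% were MHCII-high (exact permutation p = 0.743).

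Genes other than those of the cut differed between the 2 classes within a mouse. The 4 control mice and Arpc4ΔCx3cr1 mouse 3 had at least 5 members of each class, and UMIs were summed per mouse and class and compared with the mouse as a block. Of 3610 genes tested 212 (5.87%) passed an adjusted p of 0.05, 94 higher (2.6%) and 118 lower (3.27%) in MHCII-high members. Among marker-rich members, with 1738 genes tested, 26 (1.5%) passed, 12 higher (0.69%) and 14 lower (0.806%).

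The rest of the antigen presentation list stood high in MHCII-high members, with 7 of its 10 tested genes outside the cut higher and none lower (median log2 difference 1.74, against -0.04 over all genes). *Cd74*, the invariant chain that escorts MHC class II, was at 26929 to 40031 CPM in the MHCII-high members of the 5 mice and at 840 to 2454 CPM in the MHCII-low ones, 4.33 higher on the log2 scale (SE 0.17, adjusted p 6.6e-27). The SE of a log2 difference is the difference divided by the root of its F statistic throughout. *H2-DMb1* and *H2-DMa*, which load peptides, were higher by 3.23 (SE 0.25) and 2.30 (SE 0.22), and *Ciita*, the transactivator of the MHC class II genes, by 3.51 (SE 0.65). *Ccr2*, the receptor by which monocytes follow CCL2, was at 934, 588, 376, 163 and 142 CPM in the MHCII-high members and at 121, 38.0, 38.0, 14.3 and 0 CPM in the MHCII-low members of control mice 1 to 4 and Arpc4ΔCx3cr1 mouse 3. The log2 difference was 3.36 (SE 0.31, adjusted p 4.0e-12). *Ccr2* stands in the monocyte list too, and its UMIs lay almost wholly in members that were not marker-rich. Of 164 *Ccr2* UMIs in control and 54 in Arpc4ΔCx3cr1 members, marker-rich members held 5 in control mouse 3, 4 in control mouse 4 and none in the other mice. *Plbd1*, a phospholipase B-like protein, *Clec4b1*, a C-type lectin, *Rnase6*, an antimicrobial ribonuclease, *Fxyd5* and *Ms4a4c* were also higher, by 2.18 to 3.83. These 5 genes and *Ccr2* were not among the genes tested in marker-rich members.

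Of 27 tested genes of the CAM identity list, none of which the rule used, 13 were lower and 2 higher in MHCII-high members (median -1.06). Marker-rich were 34 of 88 MHCII-high and 176 of 280 MHCII-low members, so the classes also differ in how well the name CAM fits. No list was counted among marker-rich members for this comparison. Of 12 tested genes of a list of scavenging and phagocytic receptors, 1 was lower (*Mertk*) and none higher (median -0.06). *Lyve1* was detected in 1 of 88 MHCII-high and 88 of 280 MHCII-low members. In the 5 mice it was at 0, 0, 0, 16.3 and 0 CPM in MHCII-high and at 121, 176, 100, 219 and 501 CPM in MHCII-low members, so that the groups did not overlap. With 1 UMI in the first and 183 in the second class, the ratio of low to high was 51.3, with a counting interval of 9.09 to 2037 (adjusted p 8.6e-08). *Cd209f*, a lectin of the DC-SIGN family, had no UMI in MHCII-high and 320 in MHCII-low members, at least 29.9-fold lower in the high class with a floor of 3 UMIs over the class.

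*Ednrb*, the endothelin B receptor, and *Fcna*, ficolin A, also had no UMI in MHCII-high members and were at least 6.82-fold and 6.17-fold lower. *Cd163* was at 0 to 111 CPM against 66.0 to 437 CPM (log2 -2.25, SE 0.38, adjusted p 3.1e-05), with 17 of 88 against 140 of 280 members detected. *Stab1*, the scavenger receptor stabilin-1, was at 88.9 to 601 CPM against 923 to 1031 CPM (log2 -1.45, SE 0.25), and the classes did not overlap. *Colec12*, *Folr2*, *Igf1*, *Cd38*, *Ltc4s*, *Ccl24* and *Clec4n* were lower as well, while *Mgl2*, a galactose-binding lectin, was higher by 1.92 (SE 0.29) and *Ms4a6c* by 0.68 (SE 0.20).

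Among marker-rich members *Cd74* (4.68), *H2-DMb1* (3.36), *Cd52* (1.59), *Lyve1* (-4.03), *Cd163* (-2.22), *C4b* (-3.12) and *Ccl8* (-2.28) still passed with these log2 differences, and *Mgl2* was at 0.88 (adjusted p 0.26). Other named genes did not belong to CAM biology. *Camp*, *Slpi*, *Hp* and *Pclaf*, genes of granulocytes, monocytes and dividing cells, had no UMI in MHCII-high members and were at least 127-fold, 13.5-fold, 8.50-fold and 19.3-fold lower, but control mouse 3 alone held 3668 CPM of *Camp* in its MHCII-low members, against 4.75 to 13.2 CPM in the other mice. The part of these cells in the other differences was not tested beyond the marker-rich values. Against 5.87% of all genes, calls were 1 higher and 3 lower of 10 chemokine genes, 0 and 3 of 17 reactive and lysosomal genes and 1 and 2 of 8 complement genes. They were 2 and 0 of 25 actin regulators, 1 and 0 of 9 Arp2/3 subunits and 0 of 11 interferon-stimulated genes. *Ctsd*, the lysosomal protease cathepsin D, was at 537 to 1138 CPM in MHCII-high and 2076 to 2493 CPM in MHCII-low members (log2 -1.44, SE 0.19).

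**Figure D3:**
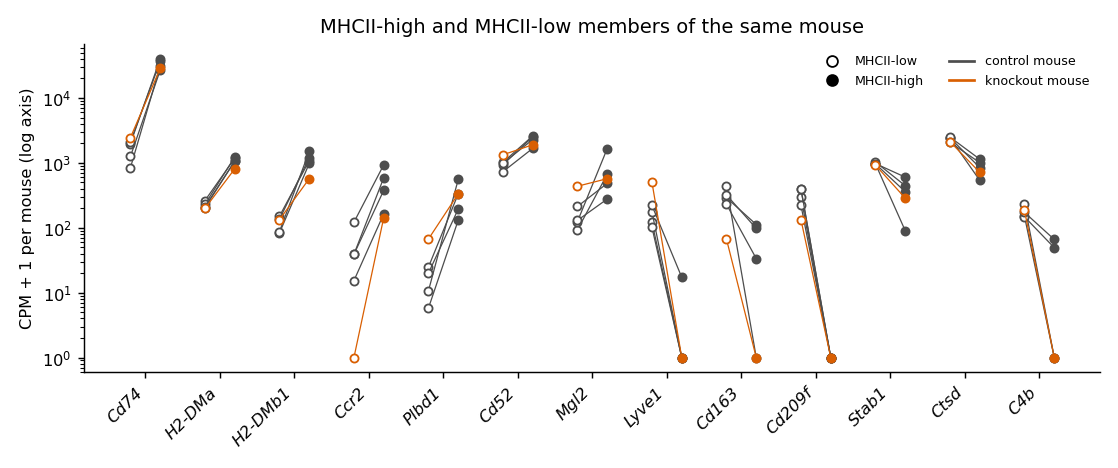
CPM + 1 (y, log axis) of 13 genes in the MHCII-low (open) and MHCII-high (filled) members of the 4 control mice (grey) and Arpc4ΔCx3cr1 mouse 3 (orange), with a line for each mouse. *Cd74* to *Mgl2* stand higher in MHCII-high members of every mouse, and *Lyve1* to *C4b* lower, with *Cd209f* at 0 in all 5 MHCII-high sums.

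Whether these class differences depended on the genotype could not be tested, since 1 Arpc4ΔCx3cr1 mouse had enough members of both classes. In a fit with edgeR that takes this mouse to vary like the controls, 1 of 3610 genes (0.0277%) passed, 284 had an unadjusted p under 0.05, and DESeq2 called 0. The gene was *Ccl12*, a chemokine for CCR2-bearing cells. It was at 489, 997, 897 and 1333 CPM in the MHCII-high members of the control mice and 5414 CPM in those of Arpc4ΔCx3cr1 mouse 3, against 405, 513, 1403, 1112 and 726 CPM in the MHCII-low members (log2 difference of differences 2.75). This is a value of 5 MHCII-high members of 1 mouse and not a measure of the genotype.

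The second comparison was between genotypes, over the summed UMIs of all members of each mouse. Of 4864 genes tested 33 (0.678%) passed, 18 higher (0.37%) and 15 lower (0.308%) in Arpc4ΔCx3cr1 mice, and 601 had an unadjusted p under 0.05. The groups did not overlap in 29 of the 33, while over all genes 2.92% did not overlap with the Arpc4ΔCx3cr1 mice higher and 3.68% with them lower.

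Most named genes that were lower in the members of Arpc4ΔCx3cr1 mice are known from monocytes and granulocytes or from cell division and chromatin. *Ly6c2*, the surface protein of classical monocytes, was at 348, 410, 157 and 246 CPM in the control and at 0, 0, 10.8 and 0 CPM in the Arpc4ΔCx3cr1 mice. On 333 and 1 UMIs, the ratio of control to Arpc4ΔCx3cr1 was 159 with a counting interval of 28.4 to 6308 (adjusted p 1.0e-05). *Elane*, the elastase of neutrophils and their precursors, was at 143, 115, 62.8 and 752 CPM and had no UMI in Arpc4ΔCx3cr1 mice, at least 47.8-fold lower with a floor of 3 UMIs over the group (adjusted p 0.023). Both rest on few cells, since 3 control members held 269 of the 300 *Elane* UMIs and 225 of the 333 *Ly6c2* UMIs. In marker-rich members neither gene had a UMI in either group.

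*Pclaf*, *Dut*, *Stmn1*, *Hmgb2*, *Hmgn2* and *H2afv*, genes of DNA replication, mitosis and chromatin, fell as well. *Hmgb2* was at 554, 856, 293 and 491 CPM against 148, 51.2, 119 and 78.7 CPM (log2 -2.40, SE 0.34, adjusted p 0.0011), but 3 control members held 334 of its 629 UMIs, and among marker-rich members its log2 difference was -0.54 (adjusted p 0.82). *Csmd3*, a large membrane protein gene, was at 158, 641, 324 and 425 CPM against 3.99, 25.6, 43.2 and 66.6 CPM (log2 -3.60, SE 0.51, adjusted p 0.0011), with UMIs in 48 of 250 and 8 of 118 members. *Ybx3*, an RNA-binding protein gene, fell by 2.87 on the log2 scale. Members with 5 or more UMIs of granule, cycling, monocyte or granulocyte genes numbered 17 in control mice, where they held 19.4% of all member UMIs, and 7 in Arpc4ΔCx3cr1 mice, with 9.88%. Of these, 2 and 1 were marker-rich. Their part in the falls was not tested beyond the marker-rich values.

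Of the genes that rose, *Ifi27l2a*, *Oasl2* and *Ifi206* belong to the interferon response. *Ifi27l2a* was at 657, 820, 831 and 917 CPM in the control mice and at 2242, 1476, 3767 and 1259 CPM in the Arpc4ΔCx3cr1 mice (log2 1.43, SE 0.28, adjusted p 0.022). *Oasl2*, of the oligoadenylate synthetase family, was at 35.6, 67.7, 123 and 110 CPM against 176, 281, 173 and 297 CPM (log2 1.39, SE 0.31, adjusted p 0.041). Both had no overlap between the groups, and they passed in 17 and 12 of 22 alternatives.

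The other rises named by rule were *Frmpd4* (log2 2.35), *Olfr111* (2.33), *Rab7b* (1.70), *Pde7b* (1.50), *Xylt1* (1.47), *Cd72* (1.30) and *Tank* (1.20). *Frmpd4*, a synaptic scaffold gene, was at 67.3, 11.9, 50.2 and 44.0 CPM against 283, 93.8, 281 and 236 CPM (SE 0.36, adjusted p 0.0018). Most of its UMIs were in members that were not marker-rich, 32 of 56 in control and 135 of 147 in Arpc4ΔCx3cr1 mice. *Pde7b*, a phosphodiesterase that breaks down cAMP, was at 146, 203, 136 and 121 CPM against 427, 333, 302 and 617 CPM (SE 0.25, adjusted p 0.0050), and was detected in 26.8 and 50.9% of marker-rich members. Among marker-rich members, where its log2 difference was 1.27, it did not pass (adjusted p 0.094). *Rab7b* encodes a GTPase of late endosomes, *Xylt1* an enzyme that starts glycosaminoglycan chains, *Cd72* a lectin-like receptor and *Tank* an adaptor of the kinase TBK1.

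The rule genes took a median of 0.719% of the UMIs of control and 0.431% of those of Arpc4ΔCx3cr1 members. The same comparison was therefore made over marker-rich members alone. That cut also kept a smaller part of the MHCII-high than of the MHCII-low members, as given above. Of 2256 genes tested 15 (0.665%) passed, 11 higher (0.488%) and 4 lower (0.177%) in Arpc4ΔCx3cr1 mice, with 171 at an unadjusted p under 0.05. Of these 15, 5 also passed among all members in the same direction. Over all genes 2.35% did not overlap with the Arpc4ΔCx3cr1 mice higher and 2.44% with them lower. As beside the other fits, CPM here are relative to the scaled UMIs of the genes tested. The summed gene UMIs were 138044 to 238848 in the control and 41176 to 95733 in the Arpc4ΔCx3cr1 mice, so that a single UMI counts for more in the latter. The microglia list lay lower in Arpc4ΔCx3cr1 mice, with all 10 tested genes below 0 among marker-rich members (median log2 difference -0.76, 1 called) and all 11 below 0 over all members (median -0.43, none called). All 12 genes of the list fell in the microglia themselves (median -1.10), and the part of microglial RNA in the differences of CAMs was not tested.

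Of the CAM identity list, the receptor genes *Lyve1*, *Siglec1* and *Clec10a* rose, while none of 12 tested genes of the scavenging and phagocytic receptor list was called (median 0.16). *Lyve1*, the hyaluronan receptor, was at 216, 348, 185 and 379 CPM in the marker-rich members of the control mice and at 1358, 521, 906 and 925 CPM in those of the Arpc4ΔCx3cr1 mice (log2 1.72, SE 0.29, adjusted p 0.0019). The share of marker-rich members with a *Lyve1* UMI was 24.0, 37.5, 27.7 and 37.1% in the control and 54.5, 44.4, 50 and 73.9% in the Arpc4ΔCx3cr1 mice, at median depths of 3382 to 4678 and 3297 to 3946.5 UMIs. Among marker-rich members neither measure overlapped between the groups. Of all members, 14.3, 23.1, 20.6 and 24.1% in the control and 19.5, 20.8, 26.3 and 55.9% in the Arpc4ΔCx3cr1 mice had a *Lyve1* UMI. These shares overlapped between the groups. Over all members *Lyve1* did not pass, at 99.0, 147, 77.4 and 172 CPM against 187, 179, 410 and 466 CPM (log2 1.33, SE 0.32, adjusted p 0.072). Among marker-rich members it passed without Arpc4ΔCx3cr1 mouse 1 (log2 1.52, adjusted p 0.019) and among MHCII-low ones (1.73, adjusted p 0.010), both chosen after the data were seen.

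*Siglec1*, the sialic acid receptor sialoadhesin, was at 77.9, 56.5, 39.3 and 64.4 CPM in control and at 194, 286, 119 and 299 CPM in Arpc4ΔCx3cr1 mice (log2 2.00, SE 0.38, adjusted p 0.0070). It rests on few members, being detected in 4 of 25, 3 of 32, 5 of 65 and 6 of 35 in the control mice. In the Arpc4ΔCx3cr1 mice these were 3 of 11, 5 of 9, 3 of 10 and 10 of 23. *Clec10a*, a galactose-binding lectin, was at 199, 292, 370 and 234 CPM against 582, 677, 834 and 898 CPM (log2 1.45, SE 0.26, adjusted p 0.0029). In both the lowest Arpc4ΔCx3cr1 mouse lay above the highest control. *Cd163* did not differ in this way, with 387 to 810 CPM in control and 71.5 to 938 CPM in Arpc4ΔCx3cr1 mice (log2 0.16, 95% interval -0.58 to 0.89, adjusted p 0.97). In all, 4 of the 28 genes of the CAM identity list passed among marker-rich members, all higher (*Lyve1*, *Siglec1*, *Clec10a* and *Ifi207*), with a median of 0.36 against 0.01 over all genes tested, and 1 of 28 (*Ifi207*) among all members.

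Genes of the interferon response rose among marker-rich members, with 4 of the 8 tested of a list of 13 higher and none lower (median 1.25 against 0.01 over all genes). Among all members it was 2 of 11 (median 0.80). *Ifi27l2a* was at 736, 1224, 881 and 749 CPM in control and 9994, 1588, 3957 and 2081 CPM in Arpc4ΔCx3cr1 mice (log2 2.28, SE 0.38, adjusted p 0.0019). The high value of mouse 1 comes from 11 members, and without that mouse the difference was 1.52 (adjusted p 0.019). *Ifitm3*, which blocks the entry of viruses, was at 701 to 1212 CPM against 1380 to 3040 CPM (log2 1.12, SE 0.26, adjusted p 0.043), and *Oasl2* differed by 1.38 (SE 0.33, adjusted p 0.047). *Isg15*, a ubiquitin-like protein, overlapped between the groups, with 43.3, 132, 118 and 113 CPM against 259, 52.1, 810 and 476 CPM (log2 2.01, SE 0.43, adjusted p 0.016). Without mouse 1, *Ifitm3* (adjusted p 0.23) and *Oasl2* (0.060) did not pass.

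The promoters of these genes are shown because many interferon-stimulated genes share a motif, the interferon-stimulated response element. 2 copies of GAAA with any 2 bases between them, the core of that element, were looked for on both strands from 250 bases before to 50 bases after the start of each gene, in the RefSeq promoters of GRCm38.p6. They occurred in 1131 of 32851 windows (3.44%) and in 6 of the 9 genes of the interferon list that the table holds. A gene was counted with a match in any of its windows, so the first is a share of windows and the second of genes. *Isg15*, *Ifi206* and *Ifi207* have matches before the start, *Ifitm3* only after it and *Oasl2* none. The promoters used hold none for *Ifi27l2a*, which was therefore not looked at. For the first 3 genes the 100 bases before the start are given 5′ to 3′ on the minus strand, which is the strand of each gene, with the matches in capitals. In *Isg15* (chr4:156200819-156200918) 3 matches overlap, and *Ifi206* (chr1:173491319-173491418) and *Ifi207* (chr1:173741810-173741909) have 1 each here.
Isg15: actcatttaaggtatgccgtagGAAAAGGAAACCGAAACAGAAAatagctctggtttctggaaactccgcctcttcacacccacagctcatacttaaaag
Ifi206: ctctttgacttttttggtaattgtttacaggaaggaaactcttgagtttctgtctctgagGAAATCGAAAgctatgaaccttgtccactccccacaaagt
Ifi207: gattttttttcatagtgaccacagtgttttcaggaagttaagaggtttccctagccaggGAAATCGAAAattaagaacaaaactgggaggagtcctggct
A match describes the letters and not the binding of a factor, which was not measured.

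*Ifi206* and *Ifi207* are neighbouring members of the PYHIN family of DNA sensors, and reads of such near copies may be exchanged between them, so that their separate values are uncertain. *Ifi206* was at 31.7, 27.9, 62.8 and 66.0 CPM over all members of the control mice and at 156, 76.8, 108 and 169 CPM in the Arpc4ΔCx3cr1 mice (log2 1.43, SE 0.31, adjusted p 0.041). *Ifi207* was at 251 to 443 CPM in the marker-rich members of control and at 599 to 930 CPM in those of Arpc4ΔCx3cr1 mice (log2 1.04, SE 0.25, adjusted p 0.047).

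Of the genes that fell among marker-rich members, *Pmepa1*, whose product restrains TGFβ signalling, was at 952, 913, 892 and 870 CPM in control and 259, 260, 191 and 408 CPM in Arpc4ΔCx3cr1 mice (log2 -1.63, SE 0.26, adjusted p 0.0019). The control mice lay close together and all above 408 CPM. *Pmepa1* was detected in 61.5 to 80.0% of the marker-rich members of the control mice. In the Arpc4ΔCx3cr1 mice it was in 36.4, 55.6, 60.0 and 34.8% of 11, 9, 10 and 23 members. Over all members these shares overlapped, with 71.6 to 81.0% and 55.9 to 75.0%. Over all members *Pmepa1* did not pass, at -0.68 (adjusted p 0.25), nor did *Fhit*, at -0.90 (adjusted p 0.12). Among marker-rich members *Fhit*, a hydrolase of dinucleotides, fell by 2.42 and *Olfml3*, a secreted protein of the microglia list, by 1.70 on the log2 scale. *Vcam1*, an adhesion molecule, rose by 1.34 (SE 0.32, adjusted p 0.047), and the chemokine gene *Ccl6* by 1.96 (SE 0.43, adjusted p 0.020) with overlapping groups. Without Arpc4ΔCx3cr1 mouse 1 the last 2 did not pass (adjusted p 0.20 and 0.30). *Pmepa1*, *Fhit* and *Vcam1* stand in no list and were named after their values were seen. Of 5 tested TGF-β pathway genes none passed (median 0.04).

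**Figure D4:**
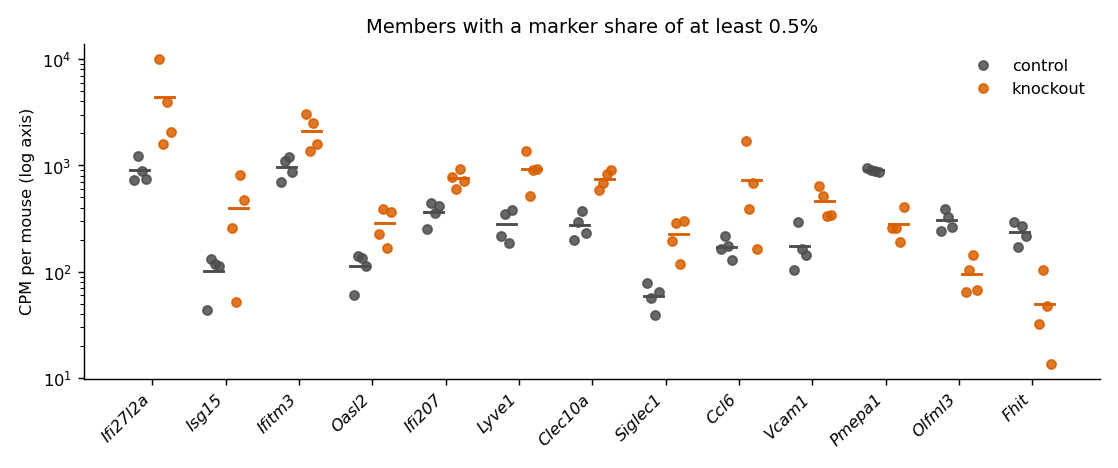
CPM (y, log axis) of 13 genes summed over the marker-rich members of each mouse. Points are mice, lines the means of 4 mice, and the 4 Arpc4ΔCx3cr1 (knockout) mice lie above the controls for all genes from *Ifi27l2a* to *Vcam1* but *Isg15* and *Ccl6*, where the groups overlap, and below them for *Pmepa1*, *Olfml3* and *Fhit*.

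The MHC class II genes did not pass between genotypes. *Cd74* was at 6298, 7898, 9581 and 7039 CPM over all members of the control mice and at 2784, 4615, 8506 and 1446 CPM in the Arpc4ΔCx3cr1 mice (log2 -0.84, SE 0.35, adjusted p 0.34), with mouse 3 inside the control range. Of the 13 tested genes of the antigen presentation list none was called (median -0.69), nor were any of 18 reactive and lysosomal (median 0.34), 10 chemokine (0.64), 8 complement (0.25), 9 iron handling (0.18), 12 scavenging receptor (0.28), 9 TGF-β pathway (0.22), 8 immediate early and stress (0.75) or 9 growth factor receptor and transcription factor genes (0.09). Over all genes the median was 0.01.

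*Arpc4*, the targeted gene (chr6:113378115-113390448, GRCm38), did not pass the test between the CAMs of the groups. It was at 230, 231, 220 and 191 CPM in control and 223, 239, 248 and 212 CPM in Arpc4ΔCx3cr1 mice (log2 0.07, SE 0.19, 95% interval -0.34 to 0.48, adjusted p 0.92), and at 0.18 (95% interval -0.40 to 0.75) among marker-rich members. In microglia of the same mice it fell by 0.61 (SE 0.05) on the log2 scale. The difference between both changes was 0.65 (SE 0.22, 95% interval 0.21 to 1.09), which did not pass over all genes (adjusted p 0.068). The sources used here do not give which part of the gene is floxed, and a 3′ count of transcripts outside the deleted part need not fall. The same count did fall in microglia, as given above, and the reason for the value in CAMs was not tested. Whether these CAMs lost the protein was not measured in these data. None of the 9 tested Arp2/3 subunit genes (median -0.13) and none of 25 actin regulators (median -0.08) passed in CAMs, where 0.678% of all genes did. In microglia 21 of 27 actin regulators passed, against 45.3% of all genes, on sums of far more UMIs.

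The third comparison set the genotype difference of CAMs against that of the microglia of the same mice, in 1 fit with the mouse as a block. Of 11349 genes 718 (6.33%) had a different genotype effect in the 2 populations, 131 more positive (1.15%) and 587 more negative (5.17%) in CAMs, and 1828 had an unadjusted p under 0.05. In microglia alone 45.3% of 12846 genes passed between genotypes, on sums of 4447905 to 11760254 UMIs per mouse against 108672 to 553942 in CAMs. With microglia drawn down to the number of CAMs 203 genes passed. CPM in the next paragraphs come from this joint fit, whose scaling differs slightly from that above.

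Of 19 tested genes of the reactive and lysosomal list, 10 had a more negative genotype effect in CAMs than in microglia and none a more positive one. *Apoe*, a lipid carrier, was at 26045, 28943, 31868 and 29775 CPM in the CAMs of control mice and at 35031, 26162, 24673 and 31282 CPM in those of Arpc4ΔCx3cr1 mice, while microglia rose from 1096 to 1573 CPM in control to 10564 to 27809 CPM. The difference of the genotype effects was -3.42 (SE 0.19, adjusted p 5.7e-15), and it passed in all 18 alternatives. *Axl*, a receptor tyrosine kinase for dying cells, was at 127, 127, 178 and 112 CPM against 229, 200, 197 and 136 CPM in CAMs, and at 14.4 to 20.5 CPM against 232 to 285 CPM in microglia (-3.37, SE 0.27, adjusted p 3.4e-11). *Ms4a7*, a membrane protein gene of the CAM identity list, was at 702 to 899 CPM against 465 to 1528 CPM in CAMs, and at 7.76 to 25.6 CPM against 163 to 282 CPM in microglia (-3.79, SE 0.27, adjusted p 1.9e-12).

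**Figure D5:**
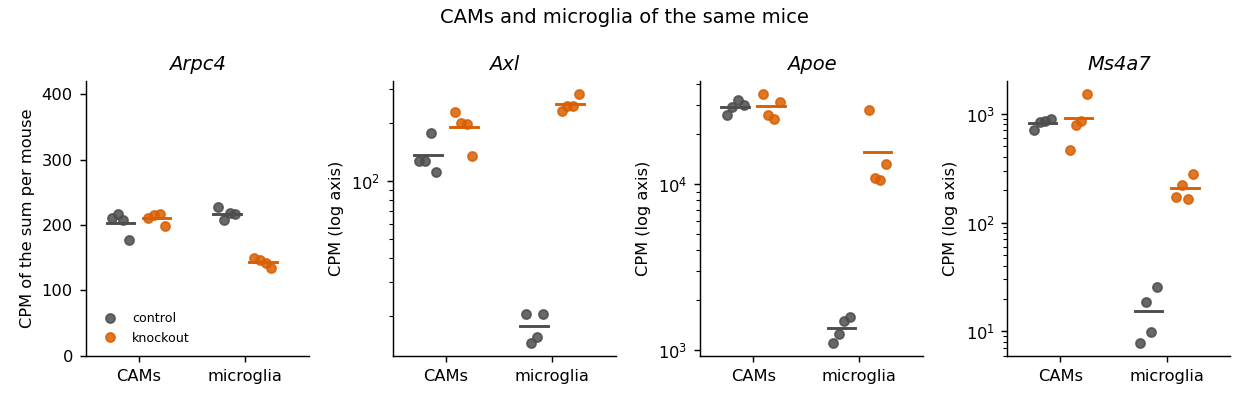
CPM (y, log axis except for *Arpc4*) of 4 genes in the CAMs and the microglia of each mouse. Points are mice and lines the means of 4 mice; *Axl*, *Apoe* and *Ms4a7* overlap or lie close between control and Arpc4ΔCx3cr1 (knockout) CAMs and are apart in microglia, and *Arpc4* lies lower in the microglia of Arpc4ΔCx3cr1 mice and overlaps between the groups in CAMs.

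The interferon list differed in the same direction. All 13 genes rose in microglia (median 3.14), and for all 13 the effect in CAMs was more negative than in microglia (median difference -2.26). *Ifi27l2a*, which rose in both populations, was at 604 to 851 CPM against 1177 to 3282 CPM in CAMs and at 53.7 to 108 CPM against 533 to 725 CPM in microglia (-1.87, SE 0.27, adjusted p 6.9e-06). *Bst2*, a protein that tethers viruses, was at 894 to 1383 CPM against 724 to 1504 CPM in CAMs and at 177 to 202 CPM against 576 to 751 CPM in microglia (-1.84, SE 0.22). Among the chemokines 8 of 12 had a more negative effect in CAMs, and *Ccl24* a more positive one.

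Other CAM genes were among those that differed. Of the 28 genes of the CAM identity list 8 had a more negative and 7 a more positive effect in CAMs. *Igf1* was at 183 to 233 CPM against 162 to 328 CPM in CAMs and at 2.73 to 4.31 CPM against 49.3 to 103 CPM in microglia (-4.16, SE 0.23), and *Colec12*, a scavenger receptor, differed by -5.07 (SE 0.38). *Maf*, a macrophage transcription factor, was at 1011 to 1484 CPM against 596 to 1702 CPM in CAMs and at 792 to 830 CPM against 217 to 393 CPM in microglia (1.37, SE 0.21, adjusted p 1.4e-05). *Slc40a1*, the iron exporter ferroportin, was at 54.5 to 83.6 CPM against 11.3 to 193 CPM in CAMs and at 113 to 123 CPM against 9.19 to 37.9 CPM in microglia (2.56, SE 0.35, adjusted p 2.1e-06). *Bank1*, a signalling scaffold gene, was at 254 to 370 CPM against 41.3 to 487 CPM in CAMs and at 220 to 251 CPM against 9.37 to 41.6 CPM in microglia (3.48, SE 0.35). In both, Arpc4ΔCx3cr1 mouse 1, the mouse with the lowest marker share, was the lowest in CAMs and below every control. The level differences between CAMs and microglia themselves follow from the rules and were not tested.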

How the data were processed

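CD45+ DAPI- brain cells of 8 mice were tagged, pooled and sequenced as 1 library. Using Cell Ranger (6.1.2 in the submitters' processing notes) and the mm10 genome, the authors made and deposited raw UMI counts per gene and cell for each mouse, with neither normalization nor ambient correction. Tag UMIs were left out. The members, gene lists and tests were chosen with earlier results of these data known. The groups come from the tag labels.

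UMIs were summed per mouse, and per class where at least 5 members were present. Sums were compared in R 4.3.3 by the quasi-likelihood test of edgeR 4.0.16 after filterByExpr and TMM scaling (threshold 0.05 on p adjusted by Benjamini-Hochberg), with DESeq2 1.42.0 as an alternative, and the fits were tested on simulated data. CPM beside a fit are scaled by TMM over the genes that filterByExpr kept. Shares were compared with two-sided exact permutation tests over mice in Python 3.11.15 with scipy 1.17.1. No source says more than that the mice were littermates, and all shared 1 library, so p-values measure the spread between mice in 1 experiment. Genes were named by rule, as the 10 largest called rises and falls of a comparison without overlap of groups (not asked of interactions; with a mouse block, the same sign in each mouse) and with at least 50 CPM in the higher group, leaving out rule genes, mitochondrial genes and unnamed gene models, and any gene of the lists. Gene positions are from GENCODE vM21, which matched 319 of 321 list and named genes. Same-numbered mice did not deviate together.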

Additional observations from a re-analysis of the deposited data

Results flagged for a closer look

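Of 78 groups of 4 mice, 5 held a mouse far from the other 3 by Dixon's criterion, where chance flags about 1 in 20. These were the marker-rich share of Arpc4ΔCx3cr1 mouse 4 (0.905% of cells), *Cd72* in Arpc4ΔCx3cr1 mouse 1 (215 CPM), *Tank* in Arpc4ΔCx3cr1 mouse 3 (184 CPM), *Elane* in control mouse 4 (752 CPM) and *Ly6c2* in Arpc4ΔCx3cr1 mouse 3, whose 10.8 CPM are 1 UMI.

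The genotype effect differed between CAMs and microglia for the genes named by rule, in an interaction test with edgeR. More positive in CAMs were *Saa3* (adjusted p 2.3e-05), *Ly6a* (2.2e-04), *Rgs7bp* (log2 difference 3.61), *Bank1* (3.48), *Nhsl2* (3.30), *Mgl2* (2.68), *Ctnnd2* (2.59), *Slc40a1* (2.56), *Ifitm10* (2.48) and *Crybb1* (2.46). *Saa3*, an acute-phase protein gene, had 1224 of its 1282 Arpc4ΔCx3cr1 UMIs in 3 members and 2 UMIs in marker-rich ones. More negative in CAMs were *Elane* (adjusted p 3.4e-11), *Mpo* (2.8e-08), *Birc5* (5.3e-06), *Ctsg* (5.4e-04), *Hist1h1b* (1.7e-05), *Ly6c2* (7.1e-07), *Top2a* (2.7e-06), *Ngp* (0.020) and *Camp* (0.016), for which fitted differences are no bound because Arpc4ΔCx3cr1 CAMs held few or no UMIs, and *Adam33* (log2 difference -5.57). *Adam33*, a metalloprotease gene, was at 37.4 to 72.7 CPM against 7.50 to 47.0 CPM in CAMs and at 0.862 to 1.22 CPM against 16.8 to 27.6 CPM in microglia.

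The difference between MHCII-high and MHCII-low members was larger in Arpc4ΔCx3cr1 mouse 3 than in the controls for *Ccl12* (log2 2.75), which is a value of 1 mouse and no test of the genotype.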

How the results depend on the processing

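The lower CAM share of Arpc4ΔCx3cr1 mice kept its direction in every alternative run. As a share of the cells outside the microglia rule it was 28.5 and 7.71%, which is not read as a result, since the genes of that rule fell in Arpc4ΔCx3cr1 microglia and more of their cells lay outside it. It did not pass with a minimum of 5 rule-gene UMIs (-1.0 percentage points, exact p 0.2) or when an Arpc4ΔCx3cr1 mouse was left out, and over all mice left out it ranged from -1.91 to -1.27. With the replicate block the differences were -1.61 points for the share (exact p 0.125, the smallest 4 pairs allow) and -12.1 points for MHCII-high CAMs (exact p 0.125), but the mouse numbers share no litter or day in the labels and the correlations of same-numbered mice were 0.073, -0.015, -0.091 and 0.102. The block gave 42 called genes for the genotype. The MHCII-high difference passed at a minimum of 5 UMIs (-19.9) and ranged from -15.7 to -9.87 without single mice.

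Counts of called genes moved more. For the genotype they were 15 (marker-rich), 14 (marker-rich without Arpc4ΔCx3cr1 mouse 1), 8 (marker-rich MHCII-low), 19 (at least 3 rule genes detected), 232 (no filter on low counts) and 16 to 75 without single mice (16 without control mouse 1, 17 without control mouse 4, 75 without Arpc4ΔCx3cr1 mouse 3). Those without mouse 1, for MHCII-low members and with at least 3 rule genes were chosen after the data were seen. For MHCII-high against low they were 525 and 124 (minimum of 5 and 12 UMIs), 26 (marker-rich), 119 (DESeq2), 86 (cut at 2%) and 111 to 264 without single mice (111 and 122 without control mice 2 and 3). For its interaction with genotype they were 17 and 3 (minimum of 5 and 12), 0 (without microglia-rich members), 0 (DESeq2), 2 (no filter) and 0 to 12 without single mice. That interaction could not be fitted for marker-rich members, with at least 3 rule genes detected or without Arpc4ΔCx3cr1 mouse 3. For CAMs against microglia they were 203 (microglia drawn down) and 587 to 785. In that comparison *Saa3* reversed among marker-rich members (-1.30) and *Mgl2* with microglia drawn down (-0.76). The cause was tested for none of these. Arpc4ΔCx3cr1 members are few and UMI sums small, so that changes of low genes could not be detected.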
